A study of Mus musculus with 6 samples.

Results

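The 8 genes described here encode the receptors through which myeloid cells read colony-stimulating factors and the closest relatives of those receptors. They were chosen by symbol, with earlier results of these data known: Csf1r (M-CSF receptor), Csf2ra, Csf2rb and Csf2rb2 (subunits of the receptors for GM-CSF, IL-3 and IL-5), Csf3r (G-CSF receptor), Il3ra (IL-3 receptor alpha chain), Flt3 (FLT3 ligand receptor) and Kit (stem cell factor receptor). All 8 were found among the 52550 genes of the deposited table. They were measured by RNA-seq in macrophages from 3 MSR1 KO and 3 MSR1 WT libraries. Both groups came from C57BL/6 mice, and MSR1 is the class A scavenger receptor of macrophages. Bone marrow cells of either genotype were grown for 7 days in 25 ng/ml M-CSF, and the resulting macrophages then shared a Transwell system with BMSCs (bone marrow mesenchymal stromal cells) for 48 h. Both groups thus had the ligand of Csf1r added during growth and BMSCs across the membrane, and no macrophages cultured alone were analysed here. The knockout is of the whole animal, and the labels state neither the age of the mice nor whether each library came from a separate animal, so that p-values measure the spread between these libraries only.

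M-CSF drives the survival and differentiation of macrophages through CSF1R, a receptor tyrosine kinase of the same family as FLT3 and KIT. GM-CSF, IL-3 and IL-5 each bind an alpha chain of their own and signal through a shared beta chain and JAK2. Mice carry a second beta chain, encoded by Csf2rb2, which works with the IL-3 alpha chain alone. G-CSF acts through paired copies of CSF3R, chiefly on neutrophils and their precursors. KIT and FLT3 mark early blood progenitors and are lost from most maturing lineages, with KIT kept on mast cells and FLT3 on dendritic cells.

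The libraries held 36143518 to 47417448 counts each, and 16402 genes passed the filter on low counts. Levels are given as CPM, each count scaled to the library's total. Where the receptors are ordered by level, they are given as RPKM, which also divides by the length of the gene's longest coding transcript in kilobases. Msr1 itself (chromosome 8, 39581685 to 39642673) stood at 58.6, 45.5 and 42.2 CPM in MSR1 KO macrophages and at 184, 196.5 and 225 CPM in MSR1 WT macrophages (log2 fold change -2.02, SE 0.13, adjusted p = 0.0012). The transcript was thus lower in every MSR1 KO library but not absent, and which exons the knockout removes is not given in the sources used here. Summed macrophage markers (10 genes, with the lysozyme gene Lyz2 the most abundant and none at 0) spanned 23336 to 24567 CPM in MSR1 KO and 23298 to 25981 CPM in MSR1 WT libraries, and 1 of the 10, the Fc receptor gene Fcgr1, was called, higher in MSR1 KO. Some gene groups outside the family separated the genotypes: the 8 interferon-response genes summed to 1693 to 2939 CPM in MSR1 KO and 605 to 1042 CPM in MSR1 WT libraries, with 7 of 8 called higher.

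Of the 8 receptors, all of which passed the filter, only Kit differed between the genotypes at an adjusted p under 0.05 (edgeR's quasi-likelihood test, Benjamini-Hochberg adjusted across the 16402), and it was higher in MSR1 KO. Over all tested genes 4.91% were called, 2.25% higher and 2.66% lower. Under the study's own definition, a fold change above 1.5 with an unadjusted p under 0.05, Kit was again the single member called, beside 8.64% of all tested genes (3.59% higher and 5.05% lower). Kit and Csf3r were the 2 members whose libraries did not overlap between the genotypes, both higher, as was so for 25.6% of tested genes (9.82% higher). The median log2 fold change of the 8 was 0.04 and that of all tested genes -0.00. With 1 or 2 of 8 members called, the counts do not set the family apart from these shares, and what follows is a description of its single members.

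**Figure D1:**
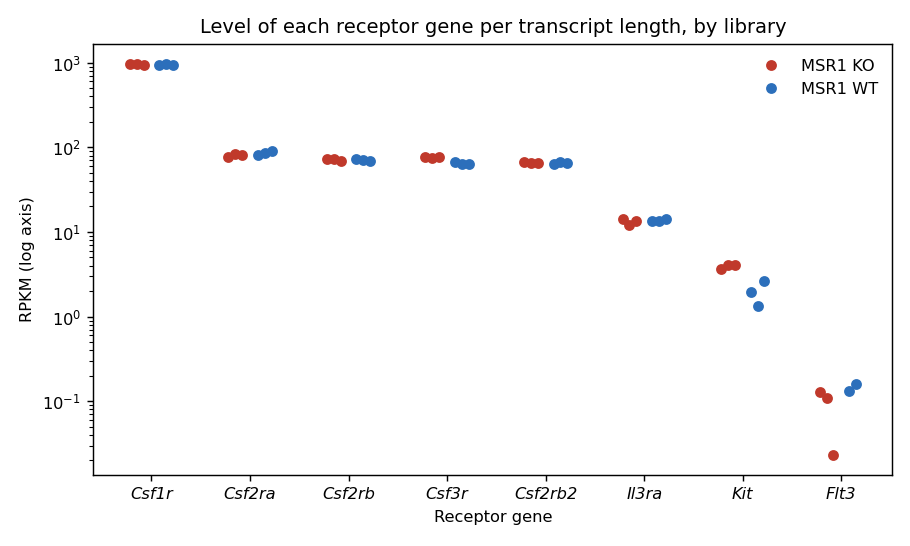
Level of each of the 8 receptors in RPKM (log axis) in the 3 MSR1 KO and 3 MSR1 WT libraries, 1 point per library, ordered by mean level. Csf1r lies above all others at 930 to 976 RPKM, and Kit is the member whose genotypes stand farthest apart among those above 1 RPKM. The MSR1 WT library with no Flt3 count is not drawn, since a log axis has no 0.

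Csf1r (chromosome 18, 61105572 to 61132149, plus strand) was the most highly expressed member by a wide margin. It ranked 15 of the 16402 tested genes by mean CPM and alone took 0.437% to 0.459% of all counts in a library, measures that also depend on transcript length. Per length its mean level was 952 RPKM, 11.5-fold above the next member. It stood at 4489, 4527 and 4443 CPM in MSR1 KO and at 4422, 4587 and 4370 CPM in MSR1 WT. The groups overlapped, and the log2 fold change of 0.04 (SE 0.053) had a 95% interval of -0.08 to 0.16 (adjusted p = 0.75). In fold terms that interval ran from 0.945 to 1.12. An antisense neighbour, Hmgxb3, shares 873 exon bases with Csf1r, and the strand setting of the counting is not given in the sources used here. Hmgxb3 itself held 35.6 ± 2.02 CPM in MSR1 KO and 37.8 ± 2.21 CPM in MSR1 WT (SD, n = 3).

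Csf2ra (chromosome 19, 61224402 to 61228418, minus strand), the chain that gives the GM-CSF receptor its specificity, was second per length at 83.0 RPKM. Its levels of 143, 156 and 149 CPM in MSR1 KO overlapped with 149, 158 and 166 CPM in MSR1 WT. The log2 fold change was -0.04 (95% interval -0.21 to 0.12, adjusted p = 0.82). Il3ra (chromosome 14, 14346275 to 14356011, plus strand), the alpha chain for IL-3, lay lower at 13.5 RPKM. It stood at 32.7, 27.7 and 31.6 CPM in MSR1 KO and 31.4, 31.0 and 32.9 CPM in MSR1 WT libraries, again overlapping (log2 fold change -0.02, 95% interval -0.23 to 0.19, adjusted p = 0.94). Il3ra shares 46 exon bases with the antisense gene Gm48860, and Csf2rb and Csf2rb2 share 62 each with a microRNA gene on the same strand.

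The beta chains come from neighbouring genes on chromosome 15, Csf2rb (78325990 to 78351000, plus strand) and Csf2rb2 (78282517 to 78305603, minus strand), which point in opposite directions. Their coding sequences in GENCODE M21 matched at 2503 of 2628 aligned bases (95.2%), so some reads cannot be assigned to one gene. The longest stretch with no difference covered 242 bases, and 11.05% of 100-base windows of Csf2rb were found unchanged in Csf2rb2. Where the genes differed most, 16 of 90 bases were different. That window is shown because reads crossing it can be told apart, with capitals marking the differing bases (coding bases 308 to 397 of Csf2rb and 311 to 400 of Csf2rb2, counted from the start codon).
Csf2rb: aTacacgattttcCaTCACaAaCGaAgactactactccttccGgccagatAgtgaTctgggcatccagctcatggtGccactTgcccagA
Csf2rb2: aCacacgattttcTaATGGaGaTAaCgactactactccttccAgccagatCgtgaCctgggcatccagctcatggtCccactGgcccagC

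The common beta chain gene Csf2rb held 361, 354 and 335 CPM in MSR1 KO and 357, 352 and 335 CPM in MSR1 WT libraries, at a mean of 71.2 RPKM. Its log2 fold change was 0.04 (95% interval -0.10 to 0.19, adjusted p = 0.79). Csf2rb2 held 317, 309 and 309 CPM in MSR1 KO and 298, 322 and 306 CPM in MSR1 WT libraries, at 65.4 RPKM, with a log2 fold change of 0.05 (95% interval -0.09 to 0.18, adjusted p = 0.76). Neither separated the genotypes. Since reads may have been assigned to either gene, the rows were also summed: the pair stood at 662 ± 16.9 CPM in MSR1 KO and 657 ± 16.5 CPM in MSR1 WT (SD, n = 3), a log2 fold change of 0.04 (95% interval -0.09 to 0.18, adjusted p = 0.76). Csf2rb2 made up 47.1 ± 0.753% of the pair in MSR1 KO and 47.03 ± 1.33% in MSR1 WT (exact permutation test, two-sided, p = 0.8). With 3 libraries against 3 the smallest p this test allows is 0.1. The log2 ratio of the pair's counts to those of Csf2ra was 2.15 ± 0.086 in MSR1 KO and 2.06 ± 0.09997 in MSR1 WT (exact permutation p = 0.5). That to Csf1r was -2.76 ± 0.031 and -2.76 ± 0.0079 (exact permutation p = 1). These ratios are not divided by transcript length, so they compare the genotypes and not the levels of the chains. Neither ratio of the summed beta chains separated the genotypes beyond the spread of the libraries.

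Csf3r (chromosome 4, 126024550 to 126044440, plus strand) stood at 70.1 RPKM, between the means of the beta chains. It held 267, 257 and 268 CPM in MSR1 KO and 231, 219 and 223 CPM in MSR1 WT. Every MSR1 KO library was thus above every MSR1 WT library, and the fold change from edgeR's fit was 1.20 (95% interval 1.09 to 1.33). The log2 fold change of 0.27 (SE 0.063, unadjusted p = 0.0027) missed the threshold after adjustment (adjusted p = 0.053), while DESeq2's Wald test placed it past the threshold (log2 fold change 0.27, adjusted p = 0.0096). In edgeR it was not called with any single library left out (adjusted p = 0.088 to 0.20). Because Csf3r is abundant in neutrophils, the neutrophil markers were read beside it. The 10 markers, with Ngp (a neutrophil granule protein) the most abundant and none at 0, summed to 678 to 1100 CPM in MSR1 KO and 459 to 848 CPM in MSR1 WT libraries, which overlapped. None of the 10 was called, and all 10 had log2 fold changes above 0. Their part in the Csf3r values was not tested. In bulk RNA a change in the number of cells of a type cannot be told apart from a change in RNA per cell.

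Kit (chromosome 5, 75574916 to 75656722, plus strand) was the member that rose. It held 19.3, 21.5 and 21.3 CPM (699, 863 and 1012 counts) in MSR1 KO libraries and 10.1, 7.04 and 13.8 CPM (415, 328 and 566 counts) in MSR1 WT libraries. The MSR1 KO libraries lay close together and above all MSR1 WT libraries, which were more widely spread. The difference came to a log2 fold change of 1.04 (SE 0.22, 95% interval 0.53 to 1.55, adjusted p = 0.039), or 2.05-fold with an interval of 1.44 to 2.93. Even so, Kit was a minor transcript at 2.96 RPKM, and its call was near the threshold. Leaving out 1 library at a time, it stayed called without MSR1 WT replicate 3 (adjusted p = 0.011) and lost its call without any other single library (adjusted p = 0.069 to 0.14), with log2 fold changes of 0.82 to 1.31. DESeq2's Wald test called it with an adjusted p of 0.000135.

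**Figure D2:**
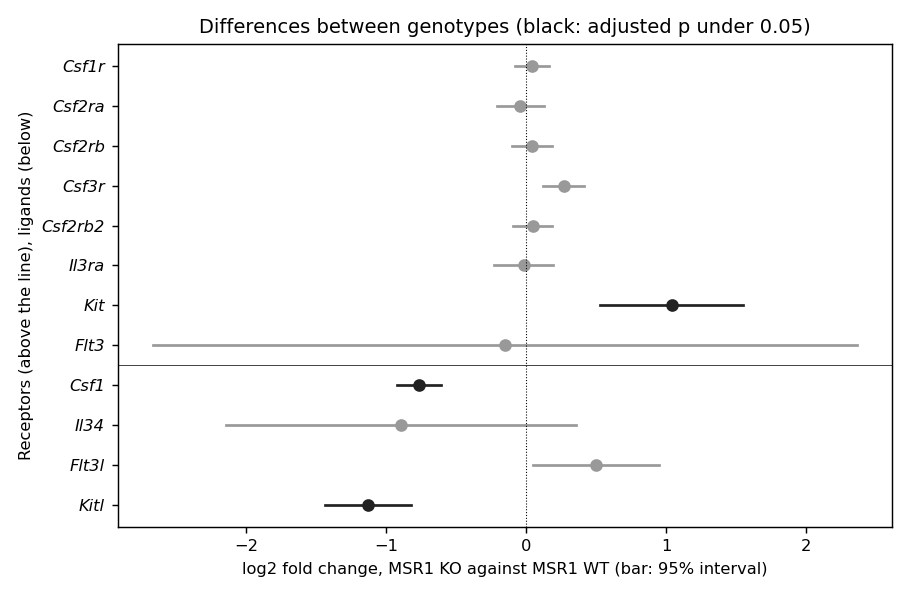
Log2 fold change of MSR1 KO over MSR1 WT for each receptor and, below the line, 4 ligands, with the 95% interval (bar) from edgeR's quasi-likelihood fit (3 libraries a group); black marks an adjusted p under 0.05. The intervals of Csf1r, Csf2ra, Csf2rb, Csf2rb2 and Il3ra include 0 and are narrow, those of Csf3r (0.12 to 0.41) and Kit (0.53 to 1.55) lie above 0, and that of Flt3 runs from -2.67 to 2.36.

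The cells that carry KIT most strongly were looked for by their markers. Of 9 mast cell and basophil genes, the protease genes Mcpt4 and Tpsb2 were at 0 in every library and Hdc, the histamine-forming enzyme, was the most abundant. Their sum was 16.9 to 18.5 CPM in MSR1 KO and 10.98 to 15.7 CPM in MSR1 WT libraries, which did not overlap. None of the 5 tested was called, all 5 had log2 fold changes above 0, and 1 was higher in every MSR1 KO library. Blood progenitor markers (8 genes, 6 tested, Procr the most abundant, none at 0 in all libraries) summed to 15.9 to 17.5 CPM in MSR1 KO and 16.3 to 19.9 CPM in MSR1 WT libraries, with none called. The progenitor sum overlapped, and the mast cell sum was higher in every MSR1 KO library, as Kit was. The same held for 9.82% of all tested genes taken singly. The part of these cells in the Kit values was not tested.

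Flt3 (chromosome 5, 147330741 to 147400489, minus strand) was close to absent at 0.0924 RPKM. It had 17, 16 and 4 counts in MSR1 KO libraries and 20, 0 and 24 counts in MSR1 WT libraries. With so few counts the log2 fold change of -0.15 had a 95% interval of -2.67 to 2.36 (adjusted p = 0.96), and these few counts leave its direction unresolved. Dendritic cell markers (7 genes, 6 tested, Batf3 the most abundant, none at 0 in all libraries) were also low, at 4.34 to 5.80 CPM in MSR1 KO and 3.15 to 5.30 CPM in MSR1 WT libraries, with none called. In order of level per length, then, Csf1r stood first, followed by Csf2ra. After it came Csf2rb, Csf3r and Csf2rb2, whose ranges overlapped with their neighbours among these. Il3ra, Kit and Flt3 followed, each separate from the next. This order rests on the longest coding transcript as the length (1849 bases for Csf2ra, whose exons together cover 2871). Other lengths were not tried, so the order from Csf2ra to Csf2rb2 may depend on this choice.

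Promoter sequence came from RefSeq (GRCm38.p6, 250 bases before to 50 after the start site) for 6 of the 8 members in the table used here, and those of Csf1r and Csf2rb were not analysed here. The promoters of the pair of genes whose libraries did not overlap are shown, 5′ to 3′, with capitals marking the core GAGGAA of PU.1, the factor that governs many macrophage genes. The first base of the match lay at position -223 in Kit and -86 in Csf3r, counted from the start site.
Kit, chr5:75574737-75575036, plus strand: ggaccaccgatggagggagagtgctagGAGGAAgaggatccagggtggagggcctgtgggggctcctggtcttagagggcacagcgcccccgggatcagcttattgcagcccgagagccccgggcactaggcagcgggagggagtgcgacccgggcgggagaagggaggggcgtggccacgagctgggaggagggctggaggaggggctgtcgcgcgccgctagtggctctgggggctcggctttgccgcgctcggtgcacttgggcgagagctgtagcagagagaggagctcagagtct
Csf3r, chr4:126024409-126024708, plus strand: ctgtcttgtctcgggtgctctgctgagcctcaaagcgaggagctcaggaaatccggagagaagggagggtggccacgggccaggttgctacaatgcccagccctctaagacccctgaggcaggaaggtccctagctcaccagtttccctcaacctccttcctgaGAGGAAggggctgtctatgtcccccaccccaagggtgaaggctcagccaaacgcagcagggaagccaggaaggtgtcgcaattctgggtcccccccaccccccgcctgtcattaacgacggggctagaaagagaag

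Searched on both strands, GAGGAA was present in 4 of the 6 promoters (Csf2ra, Csf2rb2, Csf3r and Kit) and in 28.3% of 32851 mouse promoters of this length. The GATA motif AGATAA (11.2% of all promoters) was in none of the 6, and the MITF motif CATGTG (14.2%) and the STAT motif TTCNNNGAA (8.30%) were each in that of Csf2rb2 alone. GAGGAA was therefore in the promoters of members that stayed level as well as in those of Kit and Csf3r. These are matches of letters in a window and not measured binding.

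Most ligands of these receptors were scarcely detected in the macrophages. Csf1, Kitl and Flt3l were detected, and of these Csf1 and Kitl fell. Of 8 ligand genes, Csf3, Il3 and Il5 had no count in any library, Csf2 had 4 and 12 counts in 2 MSR1 KO libraries and none in the other libraries, and 4 were tested. Csf1, which encodes M-CSF, stood at 73.2, 68.7 and 67.5 CPM in MSR1 KO libraries and at 123.7, 120.0 and 119.8 CPM in MSR1 WT libraries. The groups were far apart and tight (log2 fold change -0.76, SE 0.069, adjusted p = 0.0036). Kitl, which encodes stem cell factor, stood at 5.26, 6.10 and 5.44 CPM in MSR1 KO and 13.6, 12.3 and 11.8 CPM in MSR1 WT libraries (log2 fold change -1.13, SE 0.13, adjusted p = 0.0090). Kit and Kitl thus differed in opposite directions in the same libraries, and Csf1 differed while Csf1r did not. Both ligand calls held in each alternative that was run. For FLT3 ligand, Flt3l held 10.5, 11.9 and 10.6 CPM in MSR1 KO and 6.56, 6.82 and 10.5 CPM in MSR1 WT libraries (log2 fold change 0.50, SE 0.20, adjusted p = 0.21), and without MSR1 WT replicate 3 it was called (0.75, adjusted p = 0.036). Il34, the other ligand of CSF1R, was near the limit of detection at 7 to 33 counts a library (log2 fold change -0.90, SE 0.54, adjusted p = 0.44).

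Stromal cells make both M-CSF and stem cell factor, and stromal transcripts were present in these macrophage libraries. The 10 stromal markers, with the collagen gene Col1a2 the most abundant and none at 0, summed to 1113 to 1460 CPM in MSR1 KO and 1492 to 1891 CPM in MSR1 WT libraries. The sums did not overlap, and the list's median log2 fold change was -0.35. Col1a2 itself was not called (-0.39, adjusted p = 0.11). Of the 10, 3 were called lower in MSR1 KO, Pdgfra, Pdgfrb and Cxcl12, and 2 had log2 fold changes above 0, of which Thy1 was higher in every MSR1 KO library (1.31, adjusted p = 0.091). For Pdgfra, a receptor of mesenchymal cells, the log2 fold change was -1.19 (SE 0.16, adjusted p = 0.014), and for Cxcl12, a chemokine of marrow stroma, it was -1.11 (SE 0.22, adjusted p = 0.031). The part of stromal RNA in the Csf1 and Kitl values was not tested.

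**Figure D3:**
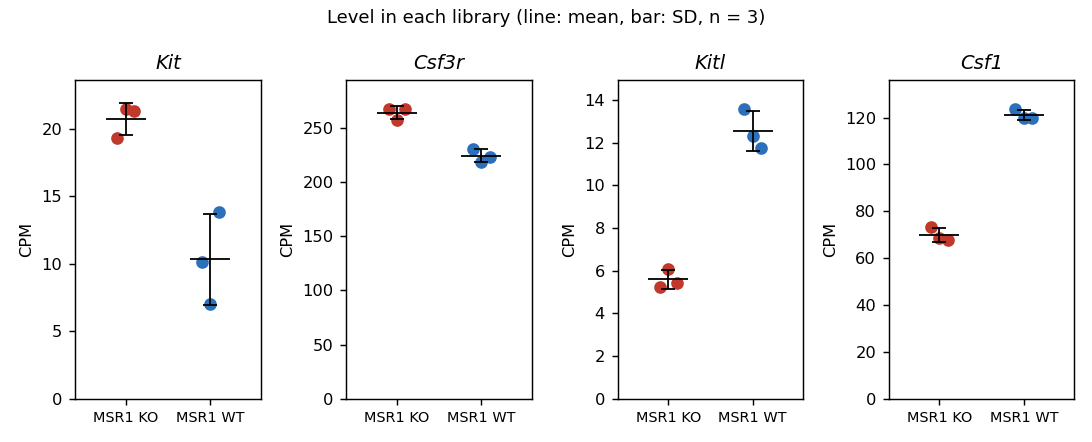
CPM of Kit, Csf3r, Kitl and Csf1 in each of the 3 MSR1 KO and 3 MSR1 WT libraries, with the horizontal line at the group mean and the bar at 1 SD. Kit and Csf3r are higher and Csf1 and Kitl lower in all MSR1 KO libraries, with no overlap between the groups.

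Signalling genes downstream of the receptors were read beside the 4.91% called of all tested genes, and 8.33% of the JAK-STAT list and 8.70% of the receptor-proximal list were called. Of 12 genes of JAK-STAT signalling and its feedback, 1 rose and none fell: Socs1, an inhibitor of JAK kinases, from 1.97 ± 0.754 CPM in MSR1 WT to 4.94 ± 0.531 CPM in MSR1 KO (SD, n = 3; log2 fold change 1.36, SE 0.30, adjusted p = 0.045). For Stat3, which carries the G-CSF signal, the log2 fold change was 0.21 (adjusted p = 0.31) and for the kinase gene Tyk2 it was 0.22 (adjusted p = 0.40). The median over this list was 0.21. Interferon-response genes, given above, were also higher in MSR1 KO, and their relation to Socs1 was not tested.

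Of 23 genes for kinases, adaptors and phosphatases that act close to the receptors, 2 rose and none fell, with a median log2 fold change of 0.12. Lyn, a Src-family kinase, rose and stood at 541 ± 58.0 CPM in MSR1 KO and 412 ± 19.3 CPM in MSR1 WT (SD, n = 3; log2 fold change 0.43, SE 0.086, adjusted p = 0.033). For Tyrobp, the adaptor DAP12, the log2 fold change was 0.06 (adjusted p = 0.79). For Ptpn6, the phosphatase SHP-1 that restrains cytokine receptors, it was 0.37 (adjusted p = 0.053). None of 13 myeloid transcription factor genes was called (median log2 fold change 0.09). Spi1, which encodes PU.1, held 334 ± 38.4 CPM in MSR1 KO and 277 ± 13.7 CPM in MSR1 WT (log2 fold change 0.30, adjusted p = 0.13), and the log2 fold change of Maf was 0.09 (adjusted p = 0.66).

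Genes that mark macrophages grown in M-CSF or in GM-CSF were examined next. Of 11 genes associated with M-CSF, 2 fell and none rose (18.2% called, beside 4.91% of all tested genes). F13a1, the coagulation factor XIII A chain, stood at 155, 123 and 138 CPM in MSR1 KO and 341, 421 and 277 CPM in MSR1 WT libraries (log2 fold change -1.29, SE 0.15, adjusted p = 0.0084), and Mrc1, the mannose receptor, at 1464 ± 98.5 and 1957 ± 153 CPM (-0.39, adjusted p = 0.037). The complement genes C1qb (0.28, adjusted p = 0.10) and C1qc (0.25, adjusted p = 0.13) had log2 fold changes above 0, and the median of the list was 0.16. Of 9 genes associated with GM-CSF, 7 were tested, 2 fell and 1 rose (42.9% of those tested, beside the same 4.91%). Itgax, the integrin CD11c, fell from 113, 78.7 and 145 CPM in MSR1 WT to 25.0, 18.2 and 15.1 CPM in MSR1 KO libraries (log2 fold change -2.50, SE 0.25, adjusted p = 0.0045). F7, coagulation factor VII, fell from 3.55 ± 0.918 to 1.25 ± 0.426 CPM (-1.48, adjusted p = 0.047), while Dpp4, the peptidase CD26, rose from 3.05 ± 1.14 to 9.22 ± 0.933 CPM (1.63, SE 0.28, adjusted p = 0.024). For Fabp4, a fatty acid carrier, the log2 fold change was -0.72 (adjusted p = 0.10), and the list's median was 0.03. The called genes of the M-CSF list were thus all lower, but 8 of its 11 log2 fold changes were above 0. Of the 11 genes, 4 were higher and 3 lower in every MSR1 KO library, so this list as a whole went both ways. The called genes of the GM-CSF list also went both ways.

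**Figure D4:**
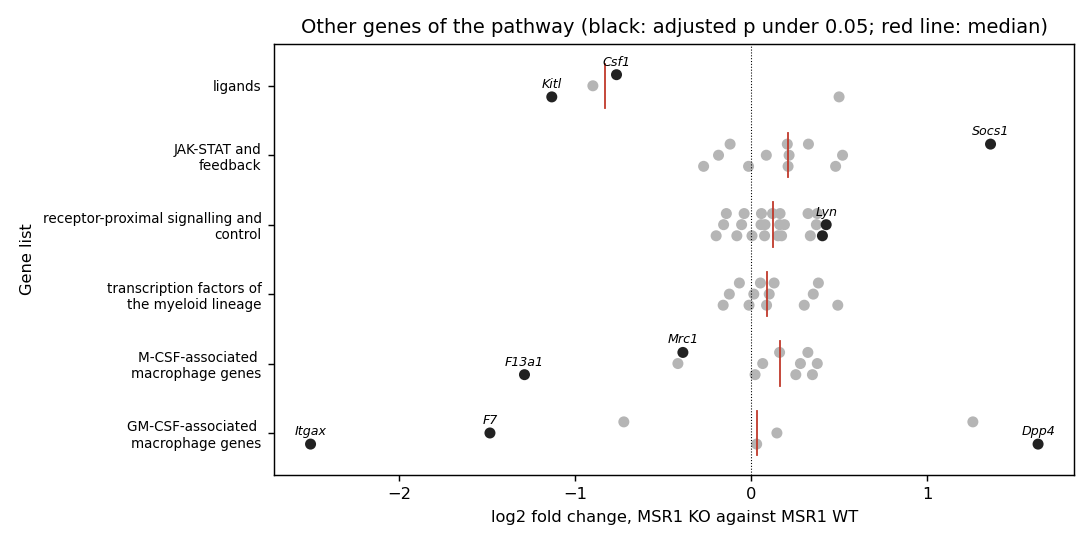
Log2 fold change (MSR1 KO over MSR1 WT) of every tested gene in the 6 lists of ligands, signalling genes, transcription factors and growth-factor-associated genes, one point per gene, with called genes in black and most of them named, and the red line at each list's median. Called genes sit on both sides of 0, and the medians run from -0.83 for the ligands to 0.21 for JAK-STAT genes.

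Over these lists, 70 of 76 genes were tested, of which 4 rose, 6 fell and 60 were not called (14.3% called, beside 4.91% of all tested genes). The balance of directions depended on the fit: DESeq2's Wald test called 11 higher and 8 lower, and 0 were called higher with the replicate block (5 lower) or without MSR1 KO replicate 1, MSR1 KO replicate 2 or MSR1 WT replicate 1 (4 lower in each). Csf1, Kitl, F13a1 and Itgax were called in each alternative. Other calls were lost in some, and some genes gained a call. Fabp4 was called with DESeq2's Wald test (adjusted p = 0.0085) and is among the 5 lower with the replicate block (adjusted p = 0.047). Ptpn6 and C1qb were also called with DESeq2's Wald test (adjusted p = 0.0066 and 0.044). F7 lost its call without any one library (adjusted p = 0.074 to 0.15). Socs1 and Mrc1 lost theirs without any library other than MSR1 WT replicate 3, Lyn without MSR1 KO replicates 1 or 2 or MSR1 WT replicates 1 or 2, and Dpp4 without any MSR1 KO library or MSR1 WT replicate 1.

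The remaining marker lists were read for cells that could add receptor transcripts. Sums overlapped between the genotypes for B cell genes (24.2 to 27.3 CPM in MSR1 KO and 25.3 to 29.8 in MSR1 WT; 7 genes, 2 tested, 1 called lower, Ebf1, which stromal cells also express), T cell genes (92.8 to 137 and 90.9 to 138 CPM; 6 genes, 3 tested, 1 called higher, Trbc2) and erythroid genes (0.149 to 0.802 and 0.0858 to 0.684 CPM; 5 genes, 1 tested and not called, with the globin gene Hbb-bs at 0). The sum of osteoclast genes, whose cells depend on M-CSF, was 475 to 581 CPM in MSR1 KO and 617 to 702 CPM in MSR1 WT. Mmp9, the most abundant of them, was not called (log2 fold change -0.33, adjusted p = 0.18). Of the 7 osteoclast genes, 6 were tested, 2 were called lower (Acp5 and Ctsk) and 2 had log2 fold changes above 0, of which Nfatc1 was higher in every MSR1 KO library, while Calcr was at 0. The sum of endothelial genes was 98.8 to 123 CPM in MSR1 KO and 63.9 to 96.2 CPM in MSR1 WT, with 1 of 5 called, Pecam1, which macrophages also express. What part these cells have in the receptor levels was not tested.

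**Figure D5:**
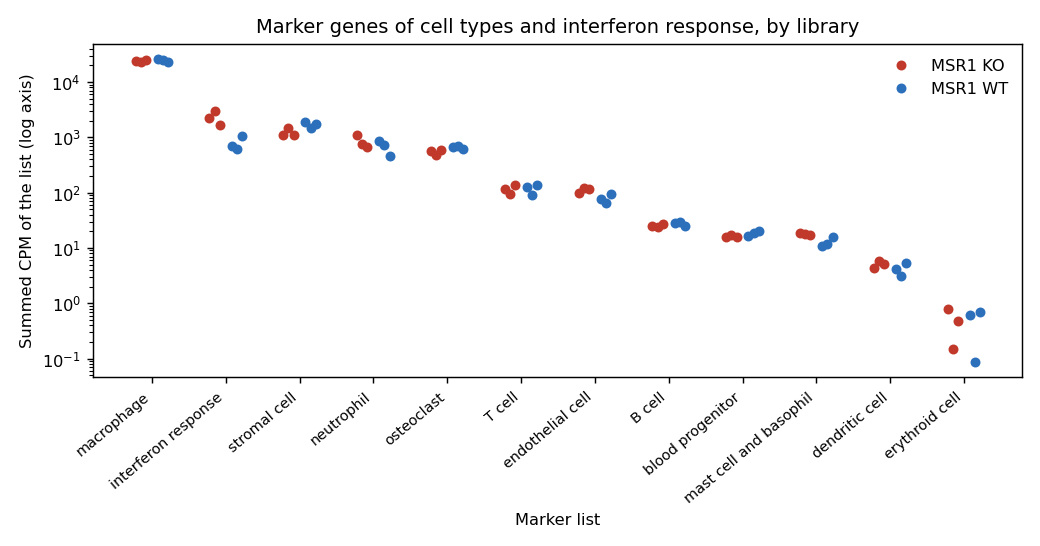
Summed CPM of each marker list in the 3 MSR1 KO and 3 MSR1 WT libraries (log axis), one point per library. Macrophage marker sums overlap between the genotypes, at 23298 to 25981 CPM in MSR1 WT, and the groups are separate for the mast cell, stromal, osteoclast, endothelial and interferon-response lists.

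For each receptor above 1 CPM, the genes with the most similar profile over the 6 libraries were found by Pearson's r of log CPM. These values describe the same 6 libraries, which differ in genotype and depth, and the best of many genes is high by selection. Kit was most like Lgals3bp (r = 0.998), Irf7 (0.997) and Zfp821 (0.997). Irf7, a regulator of interferon genes, stood at 341, 368 and 366 CPM in MSR1 KO and 133, 93.2 and 204 CPM in MSR1 WT libraries, the same order of libraries as for Kit. Csf3r was most like Snx20 (0.993), Mrps18a (0.989) and Ube2q1 (0.989). Kit and Csf3r separate the genotypes, and r over all 6 libraries includes that difference. Csf1r came closest to Grk6 (0.969), Tdp2 (0.964) and Pigu (0.960). The alpha and beta chains had other nearest genes: Mthfd1l (0.972) for Csf2ra, Golga5 (0.976) for Csf2rb, Cep85l (0.979) for Csf2rb2 and Commd9 (0.987) for Il3ra.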

How the data were processed

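Total RNA of 3 MSR1 KO and 3 MSR1 WT macrophage cultures was made into mRNA-seq libraries and sequenced on an Illumina instrument. The authors deposited raw read counts per gene and the same counts divided by size factors, a normalised signal that was used here only to check the columns. The submitters' processing notes name fastp 0.17.1, HISAT2 2.1.0, DESeq2 1.18.1 and R 3.4.3, while the study's methods describe another aligner, and the genome build and strand setting are not given in the sources used here. Columns of the authors' own fold changes and p-values were not used. The 37 mitochondrial genes have no count in any library.

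Counts were tested with edgeR 4.0.16 (filterByExpr, TMM, quasi-likelihood test without covariates) in R 4.3.3, and p-values were adjusted by Benjamini-Hochberg over the 16402 tested genes. Genotype came from the sample titles. Libraries of 1 genotype differed by more than sampling noise. Lengths, overlaps and coding sequences came from GENCODE M21, where 4 of the 8 members have the deposited span and 4 another. Symbols that a spreadsheet had turned into dates (27, of which 26 were restored) did not touch the members. Scripts were tested on simulated data. DESeq2 1.42.0, other scalings and filters, a replicate block and leaving out each library were the alternatives.

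Named genes were all members, up to 5 called genes and the 2 most abundant per length of each pathway list, the 3 genes most alike to each member above 1 CPM, and of each marker list the most abundant and any at 0. Genes named outside this rule (Fcgr1, Pdgfra, Pdgfrb, Cxcl12, Thy1, Acp5, Ctsk, Nfatc1, Pecam1, Hmgxb3, Ebf1, Trbc2) were chosen after their values were seen. The members and lists were chosen with earlier results of these data known. Values of some genes that this rule would name are not reported here.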

Additional observations from a re-analysis of the deposited data

How the results depend on the processing

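Csf1r, Csf2ra, Csf2rb, Csf2rb2 and the summed beta chains kept their direction and stayed uncalled in all 12 alternatives. Csf3r was past the threshold with DESeq2's Wald test, with DESeq2's size factors in edgeR and with at least 10 counts in every library (log2 fold change 0.27 in each, adjusted p = 0.0096, 0.049 and 0.044), but not with library size alone (0.23, adjusted p = 0.071), all genes with a count (0.27, 0.077), the replicate block (0.27, 0.13) or any library left out (0.24 to 0.29, adjusted p = 0.088 to 0.20). Kit lost its call when all genes with a total count above 0 were tested (1.04, adjusted p = 0.055) and in the fit with the replicate block (1.08, adjusted p = 0.071), and ranged from 0.82 to 1.31 with 1 library left out. The number of members called was 2 with DESeq2's Wald test, with its size factors and with at least 10 counts, 0 without the filter and with the replicate block, and 0 to 1 with 1 library left out. Kit met the study's definition in all 12. Uncalled throughout, Il3ra changed sign when a library was left out (-0.056 to 0.050), as did Flt3 (-0.75 to 0.40), which stood at 0.18 with the replicate block and could not be fitted with at least 10 counts in every library. Of the pathway genes, 10 in the report, DESeq2 called 19, the replicate block 5, and 4 to 10 were called with 1 library left out. Over all tested genes, 369 were called higher and 436 lower, against 720 and 848 with DESeq2, 237 and 288 without the filter, 59 and 78 with the replicate block, and 18 to 407 and 53 to 372 with 1 library left out. The cause of these shifts was not tested. No pairing by replicate number was seen over all genes: deviations of same-numbered libraries correlated at -0.026, 0.019 and -0.0048. A pairing that affects only some genes is not excluded by these values. Low counts limit Flt3 and Il34, and ligand genes at or near 0 were not tested.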
